A study of Mus musculus with 5 samples.

Results

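The enzymes that methylate and demethylate histone lysines and that remove acetyl groups from them were followed in fibroblasts of mouse embryos (MEFs) kept in a medium that the study used to induce neuron-like cells. Members were all genes whose symbol is Kdm, Kmt or Setd followed by a number and at most 1 letter, or Hdac followed by a number. This choice by name gave 45 of the 27729 genes in the files, namely 18 lysine demethylase (Kdm) genes, 8 lysine methyltransferase (Kmt) genes, 8 Setd genes and 11 histone deacetylase (Hdac) genes. A gene was kept if any library gave it at least 10 expected counts, which left 13346 genes and 44 of the 45 members. The exception was Kdm4d, a demethylase gene known from testis, with expected counts of 0, 1, 3, 5 and 4. Series of 5 values here and below run from day 0 over days 2, 5 and 10 to day 14.

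MEFs are connective tissue cells of mouse embryos, here of the ICR strain, and the methods state that head and inner organs were removed first. They were grown in medium with 10% fetal bovine serum and, on plates, were moved to an induction medium that the labels name 6C and the paper 5C. Total RNA was sequenced in 1 library per time point, at the start (day 0) and after 2, 5, 10 and 14 days in the new medium, and all later libraries share the day 0 library as their only reference. No culture kept in serum is among these libraries, so time in culture and the change of medium cannot be told apart. The treatment text names day 15 in place of the last label's day 14.

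Histone methylation is written by methyltransferases, most of which carry a SET domain, and erased by demethylases of the amine oxidase and jumonji types. Methyl groups on lysine 4 of histone H3 (H3K4) mark promoters and enhancers, those on H3K36 mark transcribed gene bodies, and those on H3K9, H3K27 and H4K20 mark silent or compact chromatin. Histone deacetylases remove acetyl groups that accompany open chromatin, and in fibroblasts, glia and neurons alike many act within large corepressor complexes.

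The expected counts, RSEM's estimates of reads per gene, came to a total of 2253748 for day 2, the least of any library, and 3890334 for day 0, the most, and 3 counts corresponded to between 0.771 and 1.33 per 1000000. The day 2 library also held 4.79% of its counts in Gm42418, a gene that overlaps ribosomal RNA sequence, against at most 0.109% in the other libraries. All 10 fibroblast markers had 10 or more counts on every day. Summed normalized counts of 10 Schwann cell and neural crest markers were 137 on day 0 and 11261 on day 14, those of 10 macrophage markers 117 on day 0 and between 819 and 1196 later, and those of 10 proliferation markers 1317 on day 0 and 354 on day 14. Of 10 neuron markers, Rbfox3 was at 0 in all 5 libraries and Dcx at 0 on days 2, 5, 10 and 14. The list summed to 709 on day 0 and 407 on day 14, and the highest single gene held 448 and 163 of these. Of the 7 neuron markers that were kept, 4 rose past 2-fold from day 0 and 3 fell on both days 5 and 10. Of all kept genes, 20.2% rose and 13.6% fell on day 5, and 28.7% and 22.3% on day 10. On day 14, 3 of the 7 markers rose and 3 fell, where 24.5% of all kept genes rose and 19.9% fell. In bulk RNA, fewer cells of a type and less RNA per cell cannot be told apart, and the part of these cell types in the values below was not tested.

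The members took a larger share of the transcriptome late in the conversion than at its start. Together they held 0.143% of the expected counts on day 0, and then 0.118%, 0.209%, 0.316% and 0.267% in the later libraries. The share was lowest on day 2 and highest on day 10. Of the 44 kept members, 24 had their highest normalized count on day 10, where 26.5% of all kept genes did, and 23 had their lowest on day 2, where 28.2% of all kept genes did. These shares are not matched for gene length, and the members are long genes, as given below. In the longest of 10 length groups of kept genes, the median log2 change from day 0 was −0.16, 0.32, 1.04 and 0.56 on days 2, 5, 10 and 14.

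Changes are given as log2 ratios to day 0 of normalized counts with a pseudocount of 1, where normalized counts are expected counts scaled by effective library size. A gene was called up or down past 2-fold, a log2 change of 1 or −1. With 1 library per day no test between days was possible. The 95% intervals come from the exact Clopper-Pearson method on whole-number counts of both libraries, without the pseudocount. They cover counting error only, since neither cultures nor preparations were repeated and reads carry no molecular identifiers.

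On day 2 the median change of the members was −0.17, with 4 members up and 7 down, where 15.2% of all kept genes were up and 13.1% down. On day 5 the median was 0.45, with 6 up and 0 down against 20.2% and 13.6% of all kept genes. The 7 members down on day 2 are 15.9% of the 44 and the 4 up are 9.09%. On day 10 the median reached 1.00, with 22 up and 1 down, where 28.7% of all kept genes were up and 22.3% down. On day 14 it was 0.72, with 15 up and 1 down against 24.5% and 19.9%. The median of all kept genes lay at −0.03, 0.05, 0.14 and 0.07 on the same days.

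**Figure D1:**
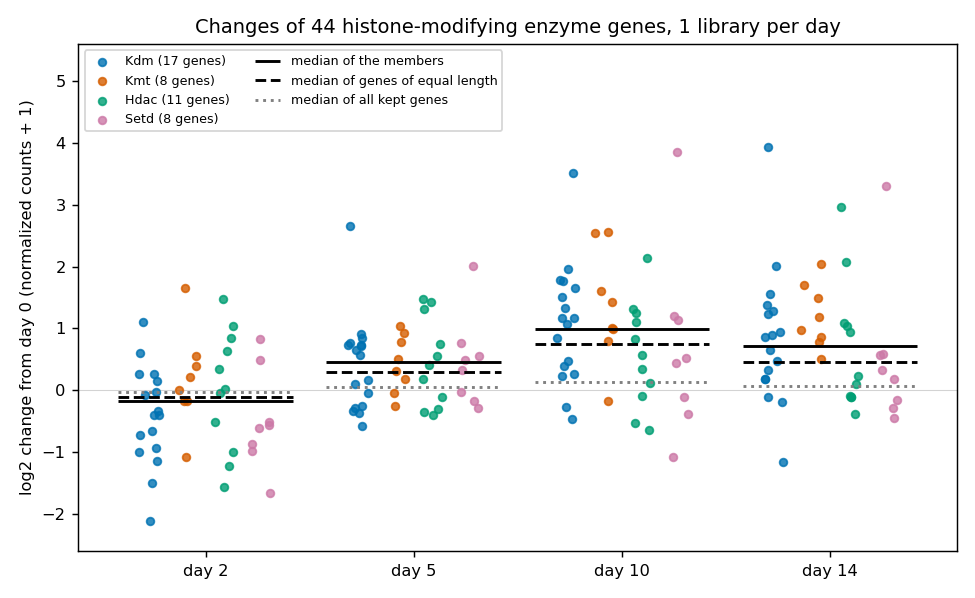
Log2 change from day 0 (normalized counts with a pseudocount of 1) of the 44 kept members on days 2, 5, 10 and 14, each point 1 gene coloured by family, with lines for the median of the members, of genes of equal length and of all kept genes. The members' median ran from −0.17 on day 2 to 1.00 on day 10 and lay above the line for genes of equal length on days 5, 10 and 14.

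The members are long genes, and the changes in these libraries moved with gene length. The median length of the kept members, averaged over the lengths RSEM gave in each library, was 4362 bases against 2525 for all kept genes, and 16 of the 44 belonged to the longest of 10 equally large length groups. On day 10 the median change ran from −1.47 in the shortest group to 1.04 in the longest. On day 2 it ran the other way, from 0.22 in the shortest group to −0.16 in the longest.

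Each member was therefore set beside the 500 kept genes nearest to it in length that are not members. These genes had median changes of −0.12, 0.29, 0.74 and 0.46 on days 2, 5, 10 and 14, and the members' median difference from them was −0.04, 0.22, 0.35 and 0.31. The number of members above their genes of equal length was 20, 25, 26 and 30 of 44. Of the genes of equal length, 13.8% were up and 14.1% down on day 2, 22.8% and 8.97% on day 5, 38.6% and 12.1% on day 10, and 29.6% and 13.0% on day 14. The 22 and 15 members up on days 10 and 14 are 50% and 34.1% of the 44. Past 2-fold relative to equal length, 4 members were higher and 7 lower on day 2, where 15.9% and 12.3% of all kept genes were, and 5 and 0 on day 5, where 18.6% and 11.4% were. On the later days, 9 members were higher and 0 lower on day 10, where 23.6% and 18.3% of all kept genes were, and 10 were higher and 1 lower on day 14, where 22.2% and 17.8% were. Against equal length, the members that stood higher made up 20.5% on day 10 and 22.7% on day 14, near the share of all genes, and those that stood lower were fewer than that share.

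**Figure D2:**
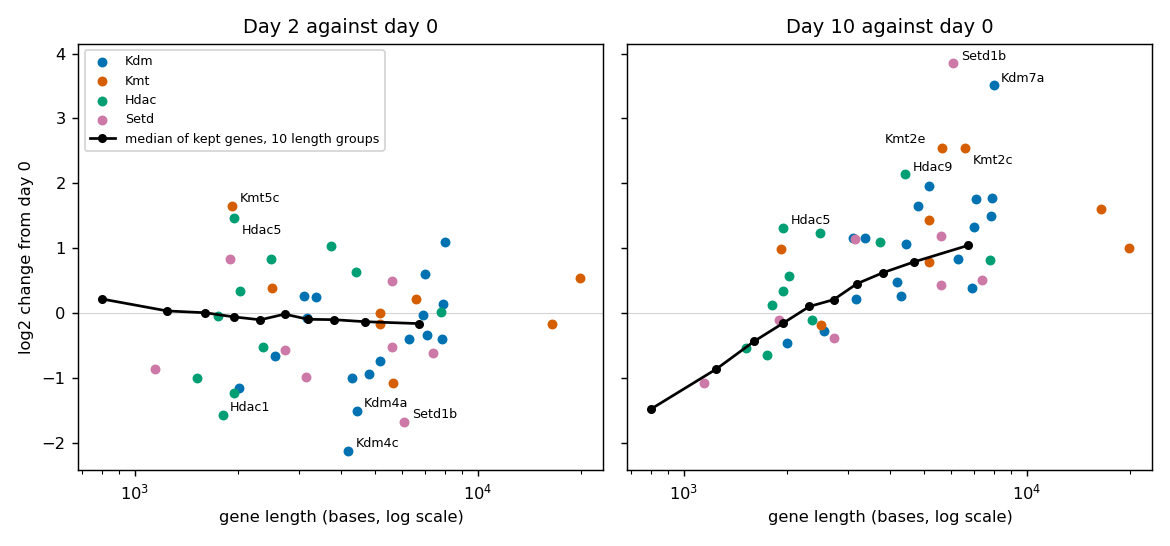
Log2 change from day 0 on day 2 (left) and day 10 (right) against gene length in bases (log axis), each coloured point 1 member and the black line the median of all kept genes in 10 length groups. On day 10 the line rises from −1.47 to 1.04 and many members lie close to it, with Setd1b at 3.85 and Kdm7a at 3.51 far above.

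Between neighbouring libraries, 11 members rose past 2-fold from day 2 to day 5, where 19.0% of all kept genes and 23.2% of genes of equal length did, and 0 fell, where 12.5% and 5.85% did. From day 5 to day 10 there were 10 that rose, against 12.8% and 19.0%, and 0 that fell, against 9.5% and 4.9%. From day 10 to day 14 neither direction held a member, where 4.73% and 3.16% rose and 8.33% and 11.4% fell. Relative to equal length, 11 stood higher and 1 lower over the first of these steps, where 15.8% and 10.7% of all kept genes did, 1 and 0 over the second, where 10.8% and 6.08% did, and 1 and 0 over the last, where 4% and 7.83% did. The members' median for that last step was −0.21 and that of genes of equal length −0.23.

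Over all days, 29 of the 44 kept members passed 2-fold on 1 or more days, 24 of them up and 8 down with 3 in both, and 15 stayed within 2-fold of day 0 throughout. Of all kept genes 67.2% passed 2-fold on 1 or more days and of genes of equal length 66.3%, so that the 29 members are near the background. Up on any day were 37.8% and 45.1% of these genes and down on any day 34.7% and 26.4%. Depth limited many of the calls. The interval lay wholly above 2-fold for 13 members on day 10, where it did for 16.5% of all kept genes and 23.7% of genes of equal length, and for 9 on day 14, where it did for 13.3% and 16.5%. On day 2 it lay wholly above for 2 members, against 5.3% and 3.86%, and wholly below for 1, against 3.33% and 3.83%. That 1 member was Hdac1, whose interval was −1.08 to −0.49 when counted with its pseudogene, as given below.

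The gene that stood farthest above genes of equal length on day 14 was Kdm7a (ENSMUSG00000042599, chr6:39136623-39206789, minus strand, GENCODE M21 on GRCm38), which encodes a jumonji demethylase of H3K9 and H3K27. It had 7.97, 10.0, 62.8, 141 and 151 expected counts, or 7.89, 18.1, 54.9, 101 and 135 normalized counts. Each later library was above the one before it, and the day 5 value already exceeded day 0 and day 2 severalfold. Its log2 change was 2.65 on day 5 (interval 1.73 to 4.07), 3.51 on day 10 (2.65 to 4.91) and 3.93 on day 14 (3.08 to 5.33), and it was 3.33 above genes of equal length on day 14. On day 2 the change was 1.10, with an interval of −0.30 to 2.74 that included 0, and a pseudocount of 5 gave 0.84.

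Next in that order were Setd1b and then Hdac9 and Hdac5. The promoters of Kdm7a, Hdac9 and Hdac5 are shown because these genes stood highest above genes of equal length on day 14 among members with a promoter in the RefSeq table. The sequences are the 250 bases before the RefSeq start nearest to the gene's 5′ end, on GRCm38.p6 and read on the minus strand, at chr6:39206774-39207023 for Kdm7a, chr12:34917096-34917345 for Hdac9 and chr11:102230173-102230422 for Hdac5. Capitals mark matches, on either strand, to the GC box (GGGCGG), the CCAAT box (CCAAT), the TATA box (TATAAA), the E-box (CACGTG), the cyclic AMP response element (TGACGTCA) and an ETS site (CCGGAAG).
Kdm7a: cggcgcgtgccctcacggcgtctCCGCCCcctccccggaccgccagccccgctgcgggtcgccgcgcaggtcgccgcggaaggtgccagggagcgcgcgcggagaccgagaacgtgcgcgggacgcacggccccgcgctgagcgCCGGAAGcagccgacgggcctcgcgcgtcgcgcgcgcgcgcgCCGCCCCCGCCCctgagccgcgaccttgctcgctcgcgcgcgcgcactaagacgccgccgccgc
Hdac9: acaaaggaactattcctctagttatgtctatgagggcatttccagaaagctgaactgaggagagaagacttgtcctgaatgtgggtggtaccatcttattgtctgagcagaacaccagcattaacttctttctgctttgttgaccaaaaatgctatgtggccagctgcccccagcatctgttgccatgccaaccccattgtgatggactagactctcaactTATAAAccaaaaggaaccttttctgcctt
Hdac5: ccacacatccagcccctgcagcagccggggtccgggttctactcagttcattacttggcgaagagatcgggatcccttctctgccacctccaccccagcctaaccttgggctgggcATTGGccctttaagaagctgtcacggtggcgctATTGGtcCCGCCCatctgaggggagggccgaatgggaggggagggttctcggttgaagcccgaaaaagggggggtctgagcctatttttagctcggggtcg

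The Kdm7a window was 82.0% G and C with 56 CG dinucleotides, 3 GC boxes and 1 ETS site. The Hdac9 window was 44.4% G and C with 0 CG dinucleotides and 1 TATA box, and the Hdac5 window was 60.8% G and C with 12 CG dinucleotides, 2 CCAAT boxes and 1 GC box. The counts do not tell which start of a gene was used, so these windows describe the annotated start only. RefSeq promoters, 48 in all, were given for 34 of the 45 members, with a median of 61.2% G and C and 18 CG dinucleotides, against 52.4% and 6 in all 32851 promoters. A GC box was present in 58.3% of the members' promoters and 32.7% of all, a CCAAT box in 41.7% and 33.8%, a TATA box in 6.25% and 12.4%, an ETS site in 10.4% and 6.91%, and an E-box in 4.17% and 6.02%. The cyclic AMP response element matched 0 of the members' promoters and 1.55% of all.

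The 7 Kmt2 and Setd1 genes encode the MLL and SET1 proteins, the main H3K4 methyltransferases, of which Kmt2e is a relative thought to lack the activity. All 7 lay above day 0 on days 10 and 14, with medians of 1.61 and 0.98, and 5 and 3 of them were up past 2-fold, where 28.7% and 24.5% of all kept genes were. Genes of equal length to these had medians of 1.02 and 0.53, and the median difference from them was 0.44 and 0.36. Past 2-fold above genes of equal length were 3 of the 7 on each of these days, where 23.6% and 22.2% of all kept genes were.

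Setd1b (ENSMUSG00000038384, chr5:123142193-123168629, plus strand), a SET1 catalytic subunit, had 8.01, 1.00, 40.0, 179 and 97.0 expected counts from day 0 to day 14, or 7.93, 1.81, 35.0, 128 and 86.7 normalized counts. The day 2 library was lowest and the day 10 library highest. The change was 2.01 on day 5 (1.03 to 3.45), 3.85 on day 10 (3.0 to 5.25) and 3.30 on day 14 (2.42 to 4.71), which put it 2.87 and 2.81 above genes of equal length on the last 2 days. The fall on day 2, at −1.67, rested on 1 count, had an interval of −7.60 to 0.77 and was −0.92 with a pseudocount of 5. Setd1a, which encodes the alternative SET1 subunit, remained within 2-fold of day 0, between 0.19 on day 14 and 0.76 on day 5.

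Kmt2c, one of the pair of enzymes that monomethylate H3K4 at enhancers, had 24.7, 29.0, 48.1, 150 and 105 normalized counts. Its values on days 10 and 14 were above the other 3, with changes of 2.55 (2.00 to 3.26) and 2.04 (1.45 to 2.76), or 1.58 and 1.48 above genes of equal length. Its partner Kmt2d, the longest member at 19805 bases, had 144, 212, 140, 291 and 265 normalized counts and passed 2-fold on day 10 alone, at 1.01 (0.74 to 1.29), which was −0.16 from genes of equal length. With DESeq2 size factors it was 0.95, which is not past 2-fold. The match in length is loose for Kmt2d, as given below.

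Kmt2e had 62.8, 29.3, 130, 371 and 207 normalized counts. It was down on day 2 at −1.07 (−2.00 to −0.30) and up on day 5 at 1.03, day 10 at 2.55 (2.19 to 2.98) and day 14 at 1.71 (1.33 to 2.16). With a pseudocount of 5 the changes on days 2 and 5 were −0.98 and 0.99, short of 2-fold. Kmt2a, which encodes MLL1, had 108, 95.9, 154, 331 and 214 normalized counts and passed 2-fold on day 10 at 1.61 (1.31 to 1.93), 0.44 above genes of equal length. At 16439 bases it is, like Kmt2d, far longer than the median of 6730 bases in the longest length group. The genes nearest in length had a day 10 median of 1.17 for both, so their match in length is loose. Kmt2b stayed within 2-fold, between 0.00 on day 2 and 0.79 on days 10 and 14.

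**Figure D3:**
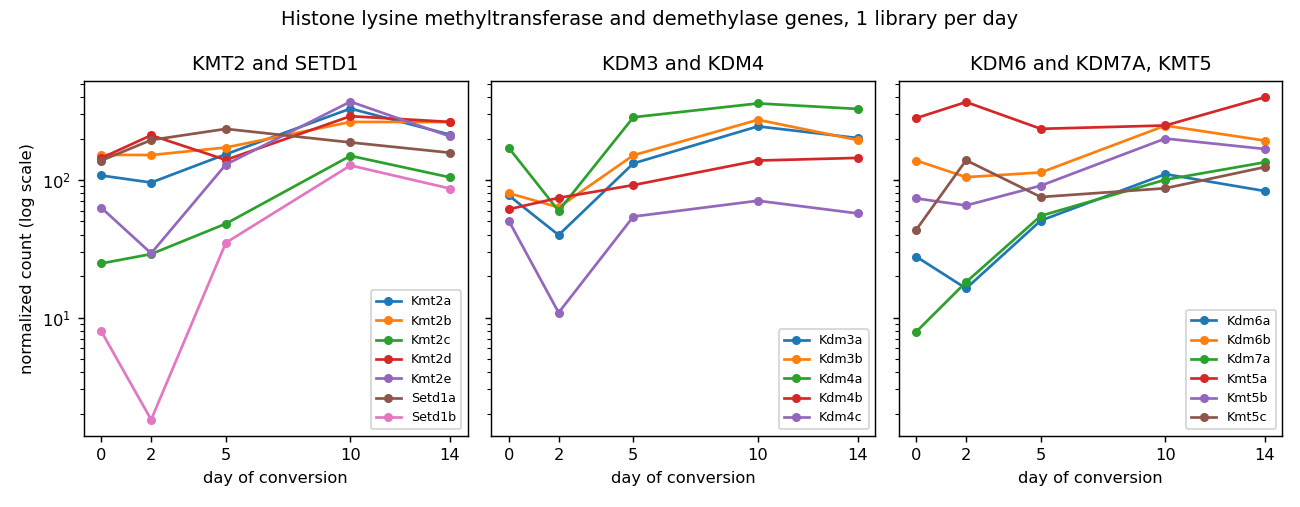
Normalized counts (log axis) by day for Kmt2 and Setd1 genes (left), Kdm3 and Kdm4 genes (middle) and Kdm6, Kdm7a and Kmt5 genes (right), each line 1 gene and each point 1 library. Setd1b runs from 7.93 to 128 on day 10, Kdm4a and Kdm4c drop on day 2, and Kdm7a is higher in each later library.

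The 3 Kmt5 genes encode the H4K20 methyltransferases, which act one after the other in setting mono-, di- and trimethylation. Kmt5c, which trimethylates H4K20 in heterochromatin, had 43.5, 139, 75.3, 87.1 and 124 normalized counts. It was highest on day 2, at a change of 1.66 (1.12 to 2.25), and was up again on day 14 at 1.49 (1.01 to 2.04). Kmt5b, which makes the dimethylated form, had 73.5, 65.3, 91.0, 200 and 168 normalized counts and was up on days 10 and 14 at 1.43 (1.08 to 1.84) and 1.18 (0.80 to 1.61). Kmt5a, which makes the monomethylated form, had 282, 369, 236, 249 and 400 normalized counts and stayed within 2-fold.

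The other 6 Setd genes had a median change of 0.21 on day 10 and 0.08 on day 14, close to the 0.35 and 0.27 of genes of equal length. Setd2, the enzyme that trimethylates H3K36, had 134, 66.9, 188, 296 and 201 normalized counts and was up on day 10 at 1.14 (0.86 to 1.44). Setd5, a SET domain protein of chromatin, had 228, 159, 286, 523 and 339 and was up on day 10 at 1.20 (0.98 to 1.42), which was 0.18 above genes of equal length. Both had their highest library on day 10 and lowest on day 2.

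Setd6, which methylates the NF-κB subunit RelA, was the shortest member at a mean length of 1146 bases. It had 73.2, 39.8, 59.5, 34.3 and 53.6 normalized counts and was down on day 10 at −1.07 (−1.65 to −0.55). Genes of its length had a median change of −1.01 on that day, and the difference from them was −0.07. On the TPM scale the day 10 change of Setd6 was 0.56, the opposite direction. Setd3, the actin histidine methyltransferase, ranged from −0.57 to −0.16, Setd4 from −0.10 to 0.83, and Setd7, an H3K4 monomethyltransferase that also acts on other proteins, from −0.62 to 0.51.

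Among the demethylases, 4 of the 5 kept Kdm3 and Kdm4 genes, whose enzymes act on methylated H3K9 and, for Kdm4, H3K36, lay below day 0 on day 2, and all 5 lay above it afterwards. Their median change was −0.94 on day 2, 0.74 on day 5, and then 1.16 and 1.23. On day 2 there were 2 down, Kdm4a and Kdm4c, where 13.1% of all kept genes were down, and past 2-fold up were 4 on day 10 and 3 on day 14, where 28.7% and 24.5% of all kept genes were. Past 2-fold above genes of equal length were 0 of the 5 on both days. Relative to genes of equal length the medians were −0.74, 0.45, 0.75 and 0.72.

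Kdm4c had 51, 6, 62, 99 and 64 expected counts and 50.5, 10.9, 54.3, 70.7 and 57.2 normalized counts. The day 2 library alone stood apart, at −2.12 (−3.73 to −1.0), the lowest change of any kept member on that day. Kdm4a had 171, 59.7, 286, 361 and 329 normalized counts, a change of −1.50 on day 2 (−2.10 to −0.98) and of 1.07 on day 10 (0.82 to 1.33). From day 2 to day 5 Kdm4c rose by 2.22 and Kdm4a by 2.24. Kdm4b, the relative known as a target of hypoxia and hormone signals, was not low on day 2, and had 61.4, 74.2, 91.9, 139 and 145 normalized counts with changes of 1.16 (0.76 to 1.61) and 1.23 (0.81 to 1.69) on days 10 and 14.

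Kdm3a, an H3K9 demethylase induced by hypoxia, had 77.2, 39.8, 132, 246 and 202 normalized counts. Its change was −0.94 on day 2 (−1.71 to −0.26), 1.66 on day 10 (1.31 to 2.04) and 1.38 on day 14 (1.01 to 1.78). Kdm3b, its close relative, had 80.2, 63.3, 151, 274 and 195 normalized counts, with 1.76 (1.43 to 2.14) and 1.27 (0.91 to 1.67) on days 10 and 14. The day 10 library was the highest for both.

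The 6 H3K4 demethylase genes moved less, with medians of −0.24, −0.19, 0.32 and 0.25 in the 4 later libraries. Since genes of equal length stood at 0.86 and 0.50 on days 10 and 14, the median difference was −0.34 and −0.25. Kdm1a, the amine oxidase LSD1 of the CoREST complex, ranged from −0.66 to −0.11, and Kdm1b, its relative, from −0.33 to 0.23. Kdm5b ranged from −0.03 to 0.39 and Kdm5c, the X-linked paralog, from −1.0, just short of 2-fold on day 2, to 0.26. Kdm5a, which was first found as a partner of the retinoblastoma protein, had 89.0, 67.0, 86.5, 254 and 166 normalized counts and was up on day 10 at 1.5 (1.18 to 1.86), 0.39 above genes of equal length.

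Kdm5d, the Y-linked paralog of Kdm5c, had 23.3, 25.8, 39.0, 82.1 and 96.9 normalized counts. It was up on day 10 at 1.78 (1.20 to 2.56) and day 14 at 2.01 (1.42 to 2.80). Reads that fit more than 1 gene are divided by RSEM, and all 5 libraries gave Kdm5d a count that was not whole. Kdm5c had whole counts on days 0 and 10, at 313 and 519. Which genes shared reads with Kdm5d was not tested. Other Y-linked genes did not all move as far. Uty, the Y-linked relative of Kdm6a, had 8.91, 14.5, 16.6, 54.2 and 35.1 normalized counts, Ddx3y had 62.4, 61.5, 74.3, 157 and 97.4, and Eif2s3y had 121, 76.0, 116, 133 and 144. Their day 14 changes were 1.87 (0.90 to 3.20), 0.63 (0.18 to 1.12) and 0.25 (−0.10 to 0.60), so that the interval of Kdm5d on day 14 lay above those of Ddx3y and Eif2s3y and overlapped that of Uty.

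The H3K27 demethylase Kdm6a, an X-linked partner of the Kmt2c and Kmt2d complexes, had 27.7, 16.3, 50.8, 110 and 83.1 normalized counts. It was up on day 10 at 1.96 (1.41 to 2.63) and on day 14 at 1.55 (0.96 to 2.25), 1.05 and 1.07 above genes of equal length. Its relative Kdm6b, an early response gene in activated macrophages, had 139, 105, 114, 249 and 193 normalized counts and stayed within 2-fold, with 0.84 (0.56 to 1.14) on day 10.

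The KDM2 genes encode H3K36 demethylases that bind CpG islands. Kdm2a had 138, 211, 217, 347 and 252 normalized counts and Kdm2b, a subunit of a Polycomb complex, had 54.4, 65.1, 91.0, 123 and 85.8. Both were up on day 10, at 1.32 (1.06 to 1.62) and 1.16 (0.73 to 1.64), and within 2-fold on the other days. They lay 0.35 and 0.62 above genes of equal length on day 10.

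Kdm8, a jumonji protein with hydroxylase activity, was the only kept member down on day 14. It had 17.3, 3.96, 16.2, 17 and 8 expected counts and 17.2, 7.16, 14.2, 12.1 and 7.15 normalized counts. The changes of −1.15 on day 2 (−3.25 to 0.40) and −1.16 on day 14 (−2.66 to 0.06) had intervals that included 0, so that a difference was not detectable at this depth. The day 14 change was −0.87 with a pseudocount of 5, which ends the call, and 0.19 on the TPM scale, which turns its direction.

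**Figure D4:**
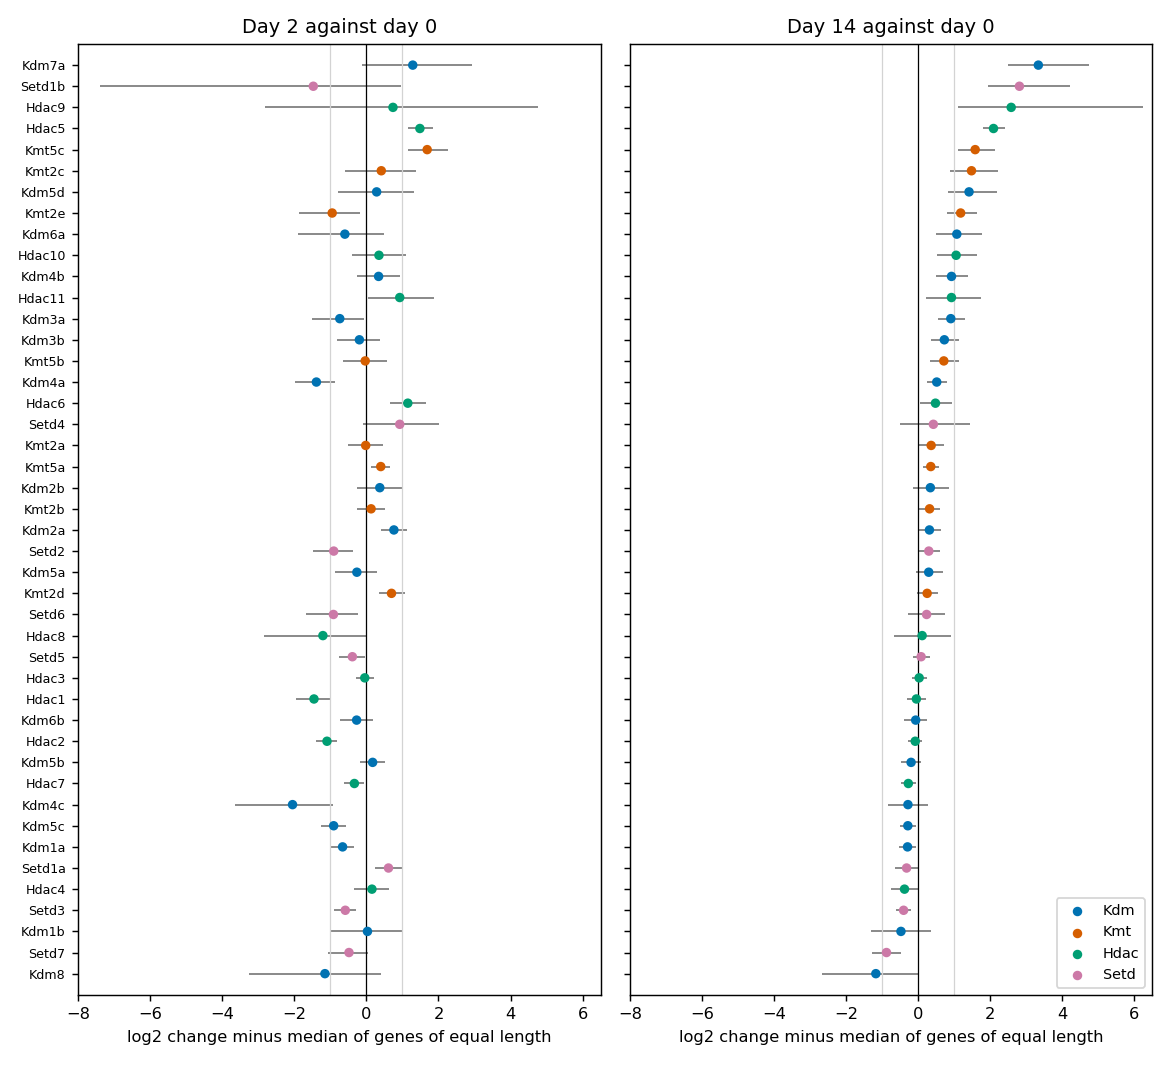
Log2 change of each kept member minus the median change of the 500 genes of equal length, on day 2 (left) and day 14 (right), with bars for the 95% interval of counting error and grey lines at 2-fold. Kdm7a (3.33), Setd1b (2.81), Hdac9 (2.58) and Hdac5 (2.09) head the order on day 14, and Kdm4c (−2.05), Setd1b (−1.48) and Hdac1 (−1.46) stand lowest on day 2.

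The Hdac genes are given by class, whose ranges overlapped. Of the 4 class I genes, Hdac1, Hdac2 and Hdac3 encode deacetylases of nuclear corepressor complexes. The 4 genes had a median change of −1.11 on day 2 and of −0.06, −0.21 and −0.10 on days 5, 10 and 14, and none was past 2-fold on the last 3 of these days. Their day 2 median includes Hdac1, whose value is uncertain as given below. The 4 class IIa genes, whose proteins shuttle between nucleus and cytoplasm and bind MEF2 factors, had medians of 0.32, 0.60, 1.07 and 1.15, with Hdac5 and Hdac9 far above Hdac4 and Hdac7 on the last day. The class IIb and class IV genes all lay above day 0 on every later day.

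Hdac2, a subunit of the Sin3, NuRD and CoREST complexes, had 449, 224, 365, 311 and 346 normalized counts and came within rounding of 2-fold on day 2 without passing it, at −1.0 (−1.30 to −0.71). Hdac3, the enzyme of the NCoR complex, had 368, 358, 278, 235 and 342, and its lowest change was −0.65 on day 10. Hdac8, which deacetylates the cohesin subunit SMC3, had 27, 6, 41, 48 and 32 expected counts, or 26.7, 10.9, 35.9, 34.3 and 28.6 normalized counts. It was down on day 2 at −1.23, with an interval of −2.87 to 0.01 that just included 0.

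Hdac1, the close paralog of Hdac2 in the same complexes, had 231, 77.4, 262, 252 and 216 normalized counts, with −1.57 on day 2 (−2.08 to −1.10) and changes within 0.18 of day 0 afterwards. This value is uncertain, because the processed pseudogene Hdac1-ps shares reads with it. The pseudogene was given 165, 84.2, 136, 115 and 95.3 expected counts, and on day 2 it held more of them than Hdac1, which had 42.8. Counted together they had a change of −0.78 on day 2 (−1.08 to −0.49), which is not past 2-fold, and of −0.05, −0.24 and −0.39 later.

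Hdac5 (ENSMUSG00000008855, chr11:102194432-102230166, minus strand) had 118, 180, 335, 410 and 553 expected counts, or 117, 326, 293, 293 and 494 normalized counts. Every later library was above day 0, with changes of 1.47 (1.14 to 1.83), 1.32 (1.02 to 1.64), 1.32 (1.03 to 1.63) and 2.07 (1.79 to 2.38) on days 2, 5, 10 and 14. It was the only gene among the members up on all 4 days beside Kdm7a, and it stood 1.48, 1.23, 1.44 and 2.09 above genes of equal length. The whole interval lay above 2-fold on each of these days.

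Hdac9 (ENSMUSG00000004698, chr12:34047580-34917095, minus strand), like Hdac5 a class IIa enzyme, had 2, 2, 8, 17 and 25 expected counts and 1.98, 3.62, 7.0, 12.1 and 22.4 normalized counts. The change was 1.43 on day 5, with an interval of −0.50 to 5.10 that included 0. It was 2.14 on day 10 (0.54 to 5.77) and 2.97 on day 14 (1.49 to 6.62), and its size is loosely bounded, since day 0 rests on 2 counts. Hdac4, a regulator of chondrocytes and muscle, had 108, 109, 99.8, 192 and 126 normalized counts and stayed within 2-fold, at 0.83 (0.51 to 1.17) on day 10. Hdac7, known from endothelium and thymus, had 381, 266, 297, 356 and 351 and ranged from −0.52 to −0.10.

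Hdac6, the class IIb enzyme that deacetylates tubulin in the cytoplasm, had 65.4, 136, 110, 141 and 126 normalized counts. It was up on day 2 at 1.04 (0.56 to 1.55) and on day 10 at 1.10 (0.71 to 1.54), and 1.15 and 0.45 above genes of equal length on those days. On the TPM scale its day 2 change was 0.70. Hdac10, a polyamine deacetylase of the same class, had 39.5, 50.7, 58.6, 59.3 and 84.9 normalized counts and was up on day 14 at 1.08 (0.55 to 1.67). Hdac11, the class IV enzyme, which removes long fatty acyl groups, had 21.8, 39.8, 62.1, 52.8 and 45.6 and was up on days 5, 10 and 14 at 1.47 (0.81 to 2.27), 1.24 (0.58 to 2.04) and 1.03 (0.32 to 1.86), the last of which was 0.92 with a pseudocount of 5.

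**Figure D5:**
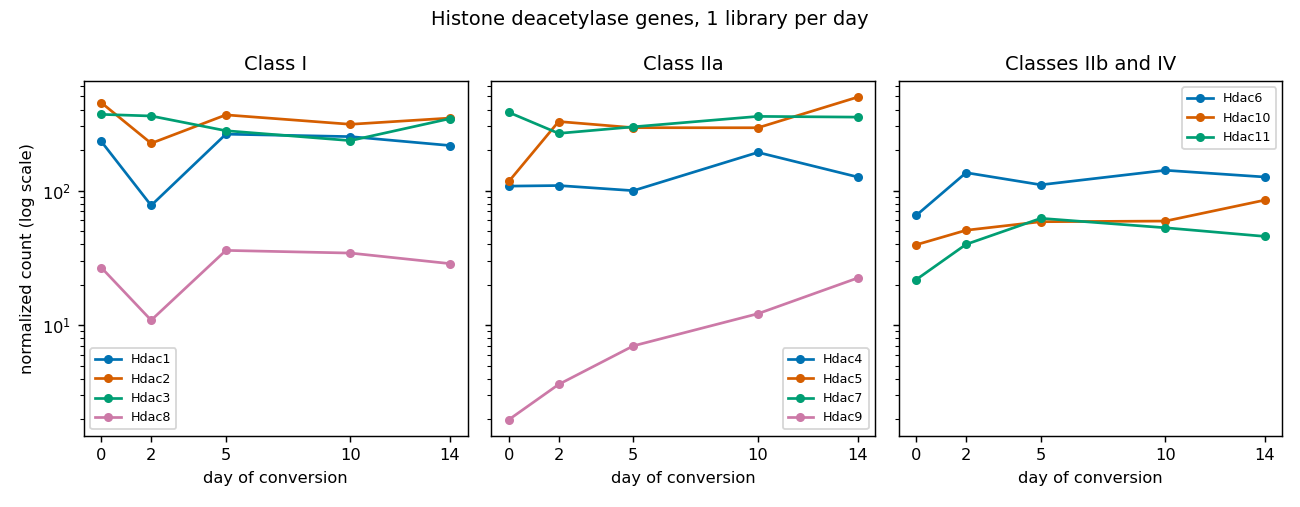
Normalized counts (log axis) of the 11 Hdac genes by day, with class I (left), class IIa (middle) and classes IIb and IV (right), each line 1 gene and each point 1 library. Hdac1, Hdac2 and Hdac8 are lowest on day 2 and Hdac3 on day 10, while Hdac5 runs from 117 to 494 and Hdac9 from 1.98 to 22.4.

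On the per-length scale of TPM, which allows levels of different genes to be set side by side, Hdac2 headed the members at both ends of the course. On day 0 Hdac2 had 110 TPM, followed by Hdac3 at 84.9, Hdac7 at 74.2, Setd3 at 44.9 and Kdm1a at 43.8. On day 14 Hdac2 had 136 TPM, Hdac5 126, Hdac3 118 and Kmt5a 105, so that Hdac5, at 31.6 TPM on day 0, joined the class I genes. Kdm7a and Setd1b remained low members even at their highest, with 9.46 and 15.1 TPM on day 10, and Hdac9 had 3.26 TPM on day 14. These levels have no replicate, and neighbours in the order cannot be separated. The length RSEM used for a gene differed by more than 1.5-fold between libraries for 15 members, by 2.76-fold for Hdac5. TPM is scaled by this length and expected counts are not. Whether the expected counts moved with it was not tested.

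Among other enzymes and partners of the same marks, 6 of 19 further lysine methyltransferase genes were up and 1 down on day 14, when 24.5% of all kept genes were up and 19.9% down. Past 2-fold above genes of equal length were 3 of the 19, where 22.2% of all kept genes were. Prdm16, an H3K9 methyltransferase of brown fat and neural stem cells, rose from 7.92 to 98.3 normalized counts (3.48, 2.61 to 4.88), Prdm2 had 1.69 and Ehmt1 1.43. The others past 2-fold, named after their values were seen, were Ash1l, Ezh1 and Suv39h1 at 1.26, 1.17 and 1.01 and Smyd5 at −1.08. Of 9 further jumonji genes 3 were up and 1 down, with Uty at 1.87, Phf2 at 1.57, Jarid2 at 1.36 and Jmjd6, which acts on RNA splicing factors, at −1.50. Of 7 arginine methyltransferase genes 0 were up and 3 down, with Prmt7 at −1.70 (−2.06 to −1.38) and Prmt5 at −1.38 (−1.65 to −1.13), and Prmt3 at −0.86. The third gene down was Prmt6 at −1.11, also named after its value was seen. The arginine methyltransferases had a median of −0.86 on day 14, where the members had 0.72 and all kept genes 0.07.

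In the lists for acetylation, and in that for methyltransferase complex subunits, the share up on day 14, not matched for length, was below the 24.5% of all kept genes. Of 10 histone acetyltransferase genes 2 were up and 0 down on day 14, with Kat2b, which encodes PCAF, at 2.26 (1.65 to 3.04), Kat6b at 1.14 and Kat6a at 0.91. Of 7 sirtuin genes, the other deacetylase family, 1 was up and 0 down. The 1 up was Sirt1 at 1.13 (0.44 to 1.93), named after its value was seen, and Sirt7 was at −0.31 and Sirt2 at −0.13. Of 22 genes for deacetylase complex subunits 2 were up and 2 down, led by Sap18 at −2.03, Rcor3 at 1.27 and Mbd3 at −1.10, with Gatad2b, named after its value was seen, at 1.22 on 6 and 17 expected counts. Of 14 genes for subunits of the H3K4 methyltransferase complexes and of the H3K27 methyltransferase complex PRC2, 2 were up and 2 down, with Paxip1 at 1.71, Jarid2 as above, Dpy30 at −1.55 and Phf19, named after its value was seen, at −2.21 on 12 and 2 expected counts. Dpy30, at a length of 790 bases, was −0.55 from genes of equal length. Relative to equal length on day 14, 2 of the 7 sirtuin genes (28.6%) stood past 2-fold higher, where 22.2% of all kept genes did. The sirtuins' median difference was 0.64. In the acetyltransferase, deacetylase complex and methyltransferase complex lists, 1 of 10, 3 of 22 and 1 of 14 stood higher. Past 2-fold lower were 0, 0, 1 and 2 genes of these lists, sirtuins first, against 17.8% of all kept genes.

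The fall of Kdm4c, Kdm4a, Hdac1, Hdac8, Kmt2e, Setd1b and Kdm8 on day 2 rests on the shallowest library, the same one that held 4.79% of its counts in Gm42418. On day 14 Kdm8 was again past 2-fold down, and the other 6 lay between −0.10 and 3.30. The part of depth and of Gm42418 in the day 2 values was not tested.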

How the data were processed

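The members and the gene lists were chosen with earlier results of these data known. For each of 5 libraries, 1 per day, the authors deposited expected counts per gene, RSEM's estimates without scaling for depth, beside TPM and FPKM values scaled for length and depth by the authors, and the gene length used. Per the labels, Bowtie, RSEM and the mm10 build were used. Their versions and the annotation are not given in the sources used here. FPKM values were used for no result.

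Identifiers were matched to GENCODE M21, giving 27247 of 27729 genes a symbol. Rounded counts gave TMM library sizes in edgeR 4.0.16 (R 4.3.3), and normalized counts used the geometric mean of the 5 sizes as their scale. Library totals lay between 2253748 and 3890334, which set the interval widths. Named with a value in every library were members past 2-fold, or as far from the 500 genes of equal length, on 1 or more days, and all members of groups of 4 or fewer. Other members are given by a range. Related lists name at most 3 genes each, those with the largest day 14 change among genes that reach 100 expected counts, and a few further genes past 2-fold were named after their values were seen. Y-linked genes were added for Kdm5d. The computations, in Python 3.11.15 with scipy 1.17.1, were tested on simulated data. Alternatives were DESeq2 1.42.0 size factors, TPM with a pseudocount of 1, a pseudocount of 5 on normalized counts, other count filters, TMM without day 2 and 10 length groups. Protein sequences were not used here.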

Additional observations from a re-analysis of the deposited data

How the results depend on the processing

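The medians and the numbers of members past 2-fold kept their values within the spread of counting error, or within 1.5 times, under DESeq2 size factors, no filter on counts, TMM factors computed without the day 2 library (which gives no day 2 value) and, for the difference from genes of equal length, 10 length groups. A pseudocount of 5 gave 2 members up and 4 down on day 2, and 0 down on days 10 and 14. With 10 or more counts required in every library, 3 were down on day 2, 3 up on day 5 and 0 down on day 14. TPM values moved the median of all kept genes up by 0.56, 0.95 and 0.72, to 0.61, 1.09 and 0.78 on days 5, 10 and 14, and gave members' medians of 0.94, 1.81 and 1.49, with 20, 37 and 31 up and 0 down on days 10 and 14. Relative to all kept genes, the members' median under TPM was 0.33, 0.71 and 0.71, against 0.41, 0.86 and 0.65. Under TPM, Setd6 on day 10 was at 0.56 and Kdm8 on day 14 at 0.19, opposite in sign to the normalized counts, and the cause was not tested. Of 56 changes of single members past 2-fold, 31 moved within their counting error under TPM and 23 beyond it, while DESeq2 size factors and a pseudocount of 5 moved 0 of the 56 beyond it. Besides the calls ended by a setting in the text above, TPM with a pseudocount of 1 ended those of Kdm7a on day 2 at 0.24, Setd1b on day 2 at −0.65, Kdm8 on day 2 at −0.91, Hdac9 on day 5 at 0.72 and Kmt2e on day 5 at 0.66. The TPM values themselves lay more than 2-fold apart for Setd1b (0.68 on day 0, 0.07 on day 2), Kdm8 (2.54 and 0.88 on the same days) and Hdac9 (0.16 on day 0, 0.91 on day 5). For these genes the pseudocount, not the TPM scale alone, ended the call. A pseudocount of 5 on normalized counts ended those of Kdm8 on day 2 at −0.86, Hdac9 on day 5 at 0.78, Setd6 on day 10 at −0.99, Kmt2d on day 10 at 0.99 and, at 0.999, Hdac6 on day 2. Counting Hdac1 together with its pseudogene was chosen after seeing the data and ended its day 2 call. No paired analysis was possible because each day had 1 library. For the same reason no library could be left out within a day, and differences between cultures or preparations are in none of the intervals.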
